A study of Mus musculus with 22 samples.

Results

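The effect of irradiation on fecal microRNAs (miRNAs) was measured on 8 of the 22 Agilent mouse miRNA arrays of the series, 4 hybridised with RNA from feces of mice given 10 Gy of X-rays and 4 with RNA from feces of mice given 0 Gy. These arrays were taken by their titles, and every miRNA spot on them was used, grouped by miRNA. The mice of both groups were male and 8 weeks old, and the X-rays were delivered at 1 Gy per minute. Strain, genotype and the time from irradiation to collection were not given in the sources used here. Whether the 4 samples of a dose came from 4 animals was not given either. The p-values therefore reflect how much these samples varied, and technical variation may be part of that. The remaining arrays held small intestine (4 at each dose, male mice of the same age), used below for comparison, and serum.

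A mature miRNA guides an Argonaute protein to messenger RNAs, mainly through its seed, bases 2 to 8, and lowers their translation and stability. It is cut from a hairpin, and its arm is written 5p or 3p. Feces carry RNA of shed intestinal cells together with RNA of microbes and food, and miRNAs outlast longer RNAs there because protein and vesicles shield them. The intestinal epithelium is renewed by dividing crypt cells, which ionising radiation kills, and radiation activates the transcription factor p53, of which the miR-34a gene is a direct target. Fewer cells of a type and less RNA per cell cannot be told apart in such samples.

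The miRNAs that the results turn on are shown here so that the rising and the falling groups can be compared. Mature sequences run 5′ to 3′ with the seed in capitals, and are from RefSeq with the GRCm38.p6 annotation, which matched 30 of the 37 miRNAs that changed. The higher ones with a sequence were
miR-34a-5p: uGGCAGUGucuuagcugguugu
miR-466q: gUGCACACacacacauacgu
miR-466i-3p: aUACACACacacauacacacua
miR-467f: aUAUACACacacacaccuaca
miR-574-3p: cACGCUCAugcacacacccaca
miR-690: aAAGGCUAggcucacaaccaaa
miR-7242-5p: aUUGGGCUugggaggugcuugu
miR-494-3p: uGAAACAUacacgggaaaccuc
miR-3473b: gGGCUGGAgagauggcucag
miR-7016-5p: cAGGGAGGggagcgagaguag
miR-8110: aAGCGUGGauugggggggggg
miR-710: cCAAGUCUuggggagaguugag

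The lower ones with the largest changes, and the brightest of them, were
miR-7083-5p: uCGGGGCUggacaagcagaga
miR-7679-5p: aGGCUGGCaccaggaucccu
miR-6989-5p: uUGGGGACagaggcacaggaug
miR-3061-5p: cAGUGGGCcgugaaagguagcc
miR-3073a-5p: gUGGUCACaguuggcgccagcc
miR-671-3p: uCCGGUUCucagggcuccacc
miR-3091-5p: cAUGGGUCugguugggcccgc
miR-1945: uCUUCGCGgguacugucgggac
miR-7216-5p: uGGAGAGCuggcagaggacccaga
miR-7088-5p: gCAAGUGGuggugaggaggggaaac

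The 30 matched miRNAs had 30 different seeds, and the seeds of the other 7 calls were not compared. Of 18 lower miRNAs with a sequence, 15 lay within the span of another gene, as did 8 of 12 higher ones and 338 (79.7%) of all 424 tested miRNAs with a sequence.

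Feces of irradiated mice held more miR-34a-5p, more of the related miRNAs miR-466, miR-467 and miR-669, and less of a set of mostly 5p miRNAs such as miR-7083-5p and miR-7088-5p. Of the 1881 miRNAs on the array, 1152 were detected on 0 of the 8 fecal arrays and 326 on all 8. The 491 that were detected on at least 4 arrays were tested with limma. At an adjusted p below 0.05, 37 (7.54%) changed, 17 higher (3.46%) and 20 lower (4.07%). An unadjusted p below 0.05 was reached by 192. In all 37 the arrays of the doses did not overlap, which was the case for 143 (29.1%) of all tested miRNAs, 97 higher (19.8%) and 46 lower (9.37%). Over all tested miRNAs the median change was 0.15 on the log2 scale, which is used for all changes below (10 Gy minus 0 Gy, ± the standard error, SE, of the fit, n = 4 arrays against 4). Levels are the signal summed over a miRNA's probes and scaled between arrays, with a floor of 4.26. Without scaling the median change was -0.49, and 1 miRNA was called higher and 26 lower.

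The 0 Gy arrays were less alike than the 10 Gy arrays. They detected 526.5 ± 130 miRNAs and the 10 Gy arrays 468.75 ± 22.9 (mean ± SD, n = 4, exact two-sided permutation p = 0.4, where 0.0286 is the smallest possible). 0 Gy replicate 3 stood apart from the others. On the first principal component it had the lowest score (-22.6, against -7.89 to 14.3 elsewhere) and the largest scaling divisor (2.79, against 0.56 to 1.77). It gave the highest 0 Gy value in 14 of the 20 lower miRNAs and the lowest, or equal lowest at the floor, in 14 of the 17 higher ones. 0 Gy replicate 4 gave the highest 0 Gy value in 16 of those 17. Leaving out control replicates 1 to 4 in turn gave 2, 34, 20 and 137 calls, and leaving out irradiated replicates 1 to 4 in turn gave 19, 6, 6 and 4. Each removal also reset the scaling and the floor. The detection rule became as many arrays as the smaller dose group held, so that 499 to 544 miRNAs were tested. Of the 37 calls, 2 (miR-671-3p and miR-7679-5p) passed whichever of the 8 arrays was left out, the second with every 10 Gy array at the floor, and the other 35 were lost without 0 Gy replicate 1. The 0 Gy arrays lay in columns 1 and 2 of the slide and the 10 Gy arrays in columns 3 and 4, and the effects of dose and of slide column cannot be told apart. Each slide row held both doses, with replicates 1 and 2 of each in row 1 and replicates 3 and 4 in row 2. Fits within a row thus used fewer arrays than the main test, and a detection rule of fewer arrays, with 478 miRNAs tested in row 1 and 587 in row 2. In these, 28 miRNAs passed within row 1 and 0 within row 2, where 98 had an unadjusted p below 0.05.

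**Figure D1:**
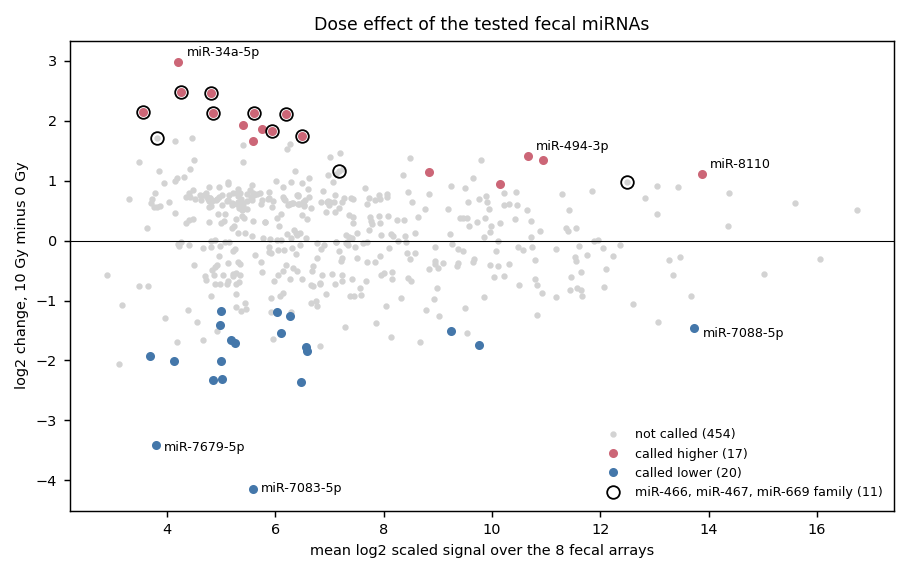
Log2 change (10 Gy minus 0 Gy) of the 491 tested fecal miRNAs against their mean log2 scaled signal over the 8 arrays, with called miRNAs coloured and the family of miR-466, miR-467 and miR-669 circled. The 11 family members all lie above 0, and miR-8110, miR-494-3p and miR-7088-5p are labelled among the brighter calls.

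Calls occurred at all levels but were most numerous among dim miRNAs. The 164 dimmest tested miRNAs, with mean scaled signals from 7.44 to 48, held 7 higher and 11 lower calls and had a median change of 0.52. The middle 163, from 48.2 to 207, held 5 higher and 6 lower calls and had a median change of 0.12. The 164 brightest, from 207 to 109000, held 5 higher and 3 lower calls and had a median change of -0.011. Among the calls, 7 higher and 8 lower miRNAs were detected on all 8 arrays.

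miR-34a-5p, the p53 target, had the largest fitted rise, a size that depends on the floor. Its scaled signal was 7.54, 4.26, 4.26 and 13.8 on the 0 Gy arrays, where replicates 2 and 3 were at the floor, and 66.4, 50.6, 28.4 and 76.8 on the 10 Gy arrays. Every irradiated array was thus above every control array, and detection went from 1 of 4 control arrays to 4 of 4 irradiated arrays. The change was 2.98 ± 0.46 (limma adjusted p = 0.013). Of its 2 probes, 1 was detected on 4 or more arrays and changed by 1.43 when floored at the dimmest detected probe, and by 2.7 with the floor used for miRNAs. With the probe floor this was below the single detected probe of miR-466q (1.82). The call was lost without 0 Gy replicate 1 or 10 Gy replicate 2, with changes from 2.61 to 3.68 over the 8 removals. With normexp background correction the change was 0.47 (adjusted p = 0.44). The miR-34a-5p gene lies at chr4:150068473-150068494 on the plus strand (GRCm38.p6), outside the span of other genes in the annotation. The array held 4 miRNAs with its seed, and the other 3 were detected on too few fecal arrays to be tested. Of all tested miRNAs 7.54% passed, and of the 6 tested on the p53 list miR-34a-5p alone did. The others with the highest levels were miR-192-5p (0.75 ± 0.62), miR-194-5p (0.38 ± 0.60) and miR-215-5p (-0.02 ± 0.53), which are also markers of the epithelium. Of that list's 12 members, miR-34c-3p was detected on 1 array at 0 Gy and miR-34b-5p, miR-34b-3p and miR-34c-5p on none.

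**Figure D2:**
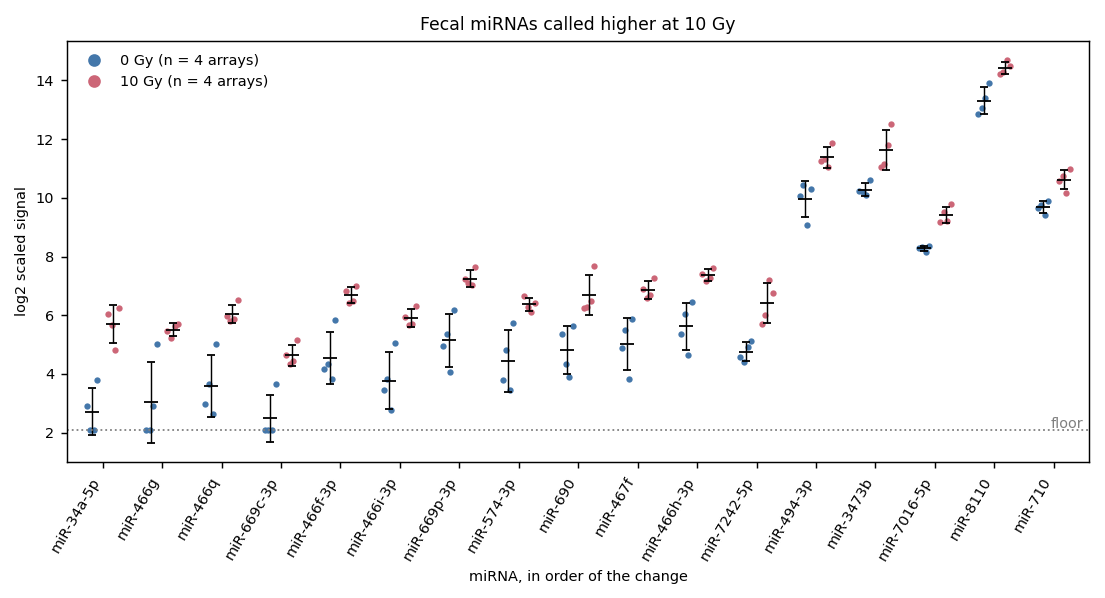
Log2 scaled signal of the 17 miRNAs called higher, with each array as a point, the mean as a dash and the SD as a bar, n = 4 arrays at each dose, and the floor dotted. The 10 Gy points lie above all 0 Gy points for each miRNA, and several 0 Gy points of miR-34a-5p, miR-466g and miR-669c-3p lie at the floor.

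miR-466, miR-467 and miR-669 are rodent miRNAs of closely related sequence, and a large cluster of their genes sits inside an intron of Sfmbt2, a Polycomb gene. Of the 61 members on the array, counting miR-297, 22 were detected on at least 1 fecal array and 11 were tested. All 11 had changes above 0, with a median of 2.11, and 8 were called higher and 0 lower, against 3.46% of all tested miRNAs. Members detected on 1 or 2 control arrays met the rule of 4 arrays only through the 10 Gy arrays, where they were high. These counts are thus partly set by that rule. Over miRNAs detected on all arrays, 4 members were tested, with a median of 1.45, and 0 passed, where 3 of all 326 miRNAs did. The family was singled out in an earlier look at these arrays. For miR-466q the scaled signal was 7.94, 12.6, 6.23 and 32.6 at 0 Gy and 62.7, 56.1, 58.7 and 91.1 at 10 Gy, a change of 2.46 ± 0.49 (adjusted p = 0.028). For miR-669p-3p it was 30.9, 41.2, 16.7 and 73 at 0 Gy and 150, 135, 131 and 202 at 10 Gy (2.11 ± 0.42, adjusted p = 0.028). The groups did not overlap in either, and in both 0 Gy replicate 4 came closest to the irradiated arrays, as it did in all 8 called members.

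miR-466h-3p was the brightest of the 8, with 40.9, 66.4, 25 and 87.5 at 0 Gy and 171, 143, 153 and 197 at 10 Gy (1.74 ± 0.38, adjusted p = 0.034). It and miR-467f (1.83 ± 0.42, adjusted p = 0.038) were detected on all 8 arrays. miR-466f-3p (2.14 ± 0.42) and miR-466i-3p (2.13 ± 0.45) were detected on 3 and 2 of the 4 arrays at 0 Gy. miR-466g (2.48 ± 0.60, adjusted p = 0.045) and miR-669c-3p (2.15 ± 0.40, adjusted p = 0.028) were each detected on 1 array at 0 Gy and had 2 and 3 control arrays at the floor. Probes of miR-466g changed by 0.38 to 0.49 with the probe floor and by 1.57 to 1.66 with the miRNA floor, less than their sum. The 3 tested members that did not pass were miR-669e-5p (1.71 ± 0.51, adjusted p = 0.075), miR-669n (1.17 ± 0.40, adjusted p = 0.08) and miR-466i-5p (0.97 ± 0.39, adjusted p = 0.097). The last was far brighter, with 2904, 6147, 2479 and 6359 at 0 Gy and 11250, 6111, 6206 and 9741 at 10 Gy, and its arrays overlapped.

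The family's median was 1.96 with quantile normalization and 1.27 without scaling, where 0 members passed, and 0.68 with normexp, where also 0 passed. No member passed without 0 Gy replicate 1 or any one of the 10 Gy arrays, while 7, 7 and 10 passed without 0 Gy replicate 2, 3 or 4. Whether the probes separate members of such similar sequence was not tested, and the members are not counted here as independent measurements.

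RefSeq sequences were at hand for 3 of the 8 called members. Their genes do not lie in Sfmbt2 but at chr3:28419988-28420007, within the span of Tnik (miR-466q), at chr13:17747552-17747573, within Cdk13 (miR-466i-3p), and at chr11:69635419-69635439 on the minus strand, within Fxr2 (miR-467f). These 3 share a run of alternating C and A with miR-574-3p, whose gene at chr5:64970364-64970385 lies within the spans of Fam114a1 and Tlr6. The run is in capitals here.
miR-466q: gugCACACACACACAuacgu
miR-466i-3p: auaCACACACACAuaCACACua
miR-467f: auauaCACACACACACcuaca
miR-574-3p: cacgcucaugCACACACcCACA

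The motif CACACA, searched on the given strand only, was in 12 (0.75%) of the 1608 array miRNAs with a sequence. Of these 12, 6 were detected in feces, 4 were tested, and those 4 were all called higher. All but miR-574-3p belong to the family counted above. miR-574-3p, miR-466q and miR-466i-3p were detected on 1 or 2 control arrays and met the detection rule only through the 10 Gy arrays. The count of calls is thus partly set by that rule. The motif was in 0 of the other 420 tested miRNAs with a sequence, and it was chosen after these values were seen. miR-574-3p had 13.7, 28.3, 10.9 and 53.7 at 0 Gy and 101, 78.2, 69.8 and 85.6 at 10 Gy (1.93 ± 0.47, adjusted p = 0.046), and was detected on 1 of 4 control arrays. The 5p arm of the same hairpin, miR-574-5p, changed by 0.77 ± 0.42 (adjusted p = 0.21), with 1164 to 2971 at 0 Gy and 2328 to 5062 at 10 Gy, which overlap.

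The remaining higher calls were not of this family, and most were brighter. miR-494-3p, of the imprinted Dlk1-Dio3 cluster, had 1056, 1383, 542 and 1267 at 0 Gy and 2438, 2557, 2127 and 3765 at 10 Gy (1.41 ± 0.34, adjusted p = 0.045). It was one of the 3 calls that also passed with normexp (1.28). miR-8110, the brightest higher call, had 7353, 8590, 10900 and 15390 at 0 Gy and 19210, 20030, 26540 and 22980 at 10 Gy (1.12 ± 0.28, adjusted p = 0.046). Its sequence ends in a run of G. miR-7016-5p, from the span of Tmem39b, had 310, 319, 286 and 325 at 0 Gy and 573, 733, 593 and 875 at 10 Gy (1.14 ± 0.22, adjusted p = 0.028).

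miR-3473b had 1199, 1180, 1081 and 1554 at 0 Gy and 2098, 2282, 3568 and 5781 at 10 Gy (1.34 ± 0.34, adjusted p = 0.048). miR-3473e has the same seed and changed by -0.20 ± 0.21. Likewise miR-149-3p (0.30 ± 0.22) and miR-1943-5p (0.04 ± 0.74), which have the seed of miR-7016-5p, did not pass. miR-690 changed by 1.86 ± 0.47 (adjusted p = 0.048), with 15 to 50.2 at 0 Gy and 75.4 to 207 at 10 Gy. miR-7242-5p changed by 1.67 ± 0.36 (adjusted p = 0.033), with 21.1 to 34.5 and 51.9 to 148. miR-710 changed by 0.95 ± 0.24 (adjusted p = 0.05 when rounded), and its 4 probes disagreed, from -0.73 to 1.14. It was the only one of the 36 calls with a probe detected on 4 or more arrays in which a probe went against the sum.

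Among the lower miRNAs, 6 were detected on every control array and on 0 irradiated arrays. miR-7083-5p, from chr9:21809975-21809995 within the span of Dock6, had 222, 127, 681 and 87.5 at 0 Gy and 13.3, 9.15, 18.7 and 7.43 at 10 Gy. It was at least 6.8-fold lower (-4.15 ± 0.61, adjusted p = 0.012), a bound set by the dimmest detected probe of each array. Both of its probes fell, by 2.91 and 2.97 with the probe floor. The call was lost without 0 Gy replicate 1 or 10 Gy replicate 4. With normexp the change of miR-7083-5p was -1.09 (limma adjusted p = 0.15), short of that bound. miR-7679-5p, from chr11:82985046-82985065 within Slfn9, had 32.3, 66.9, 49.6 and 38.9 at 0 Gy and was at the floor on all 4 arrays at 10 Gy (-3.41 ± 0.26, adjusted p = 0.00018). With a whole group at the floor, and no spread there, this change and its SE depend on the floor and are no bound. Neither of its 2 probes was detected on 4 arrays, so no fold is given. With normexp its change was -0.11 (adjusted p = 0.79).

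miR-671-3p, from chr5:24592171-24592191 within Chpf2, had 33.2, 49.1, 32 and 28.9 at 0 Gy and 8.4, 9.12, 11.2 and 6.59 at 10 Gy. It was at least 1.24-fold lower (-2.01 ± 0.26, adjusted p = 0.0077), and with normexp its change turned to 0.32. miR-3073a-5p, within Aspg, was at least 2.35-fold lower (-2.30 ± 0.46), miR-7039-5p, within Smurf1, at least 2.12-fold (-1.93 ± 0.41) and miR-3091-5p, within the ribosomal protein gene Rps21, at least 1.9-fold (-2.01 ± 0.42). With normexp miR-3073a-5p changed by -0.26 (limma adjusted p = 0.6), miR-3091-5p by -0.18 (adjusted p = 0.71) and miR-7039-5p by 0.024. These fall short of the bounds, which are set on the processed intensity and leave out sampling error. Among the tested miRNAs, 2 more had this pattern of detection without passing, miR-3076-5p (-1.36 ± 0.38, adjusted p = 0.067) and miR-217-5p (-2.06 ± 0.78, adjusted p = 0.089). No tested miRNA was detected at 10 Gy alone.

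**Figure D3:**
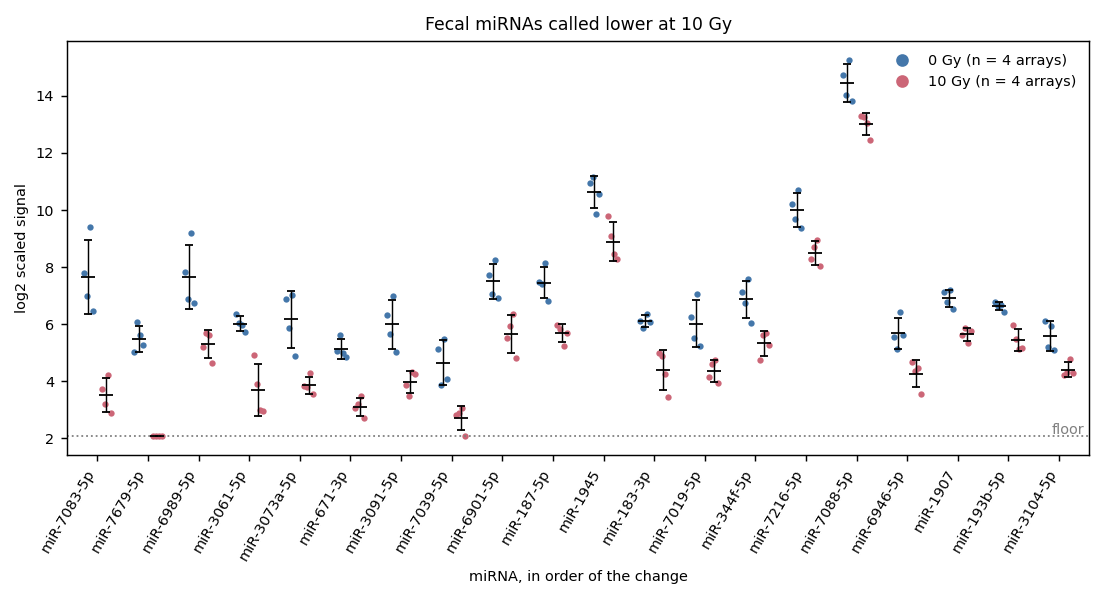
Log2 scaled signal of the 20 miRNAs called lower, with each array as a point, the mean as a dash and the SD as a bar, n = 4 arrays at each dose, and the floor dotted. The 10 Gy points of miR-7679-5p lie at the floor, and miR-7088-5p, miR-1945 and miR-7216-5p are the brightest.

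The brightest falls were detected on every array. miR-7088-5p, within the span of Mst1, had 27230, 16810, 39520 and 14420 at 0 Gy and 10080, 9830, 8441 and 5551 at 10 Gy (-1.45 ± 0.37, adjusted p = 0.048). miR-1945 had 1955, 2274, 937 and 1523 at 0 Gy and 876, 540, 352 and 309 at 10 Gy (-1.74 ± 0.40, adjusted p = 0.039). These were the other 2 calls that passed with normexp. miR-7216-5p had 1173, 831, 1674 and 661 at 0 Gy and 310, 415, 493 and 260 at 10 Gy (-1.51 ± 0.35, adjusted p = 0.038). The arrays of the doses were separate in each, with 0 Gy replicate 3 highest in miR-7088-5p and miR-7216-5p and lowest in miR-1945.

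miR-6989-5p, within Map4k2, had 226, 119, 580 and 107 at 0 Gy and 36.5, 52, 49.6 and 24.9 at 10 Gy (-2.37 ± 0.53, adjusted p = 0.035). miR-3061-5p had 81.3, 65.9, 62.3 and 52.9 at 0 Gy and 30, 15.1, 7.97 and 7.81 at 10 Gy (-2.32 ± 0.43, adjusted p = 0.028). miR-187-5p (-1.77 ± 0.32), miR-183-3p, the minor arm of an epithelial and sensory miRNA hairpin (-1.71 ± 0.35), and miR-193b-5p (-1.19 ± 0.25) also fell. So did miR-6901-5p, miR-7019-5p, miR-344f-5p, miR-6946-5p, miR-1907 and miR-3104-5p, by changes from -1.84 to -1.17. miR-6907-5p, with the seed of miR-7019-5p, changed by -0.16 ± 0.25. With normexp the changes of miR-3104-5p (0.06), miR-6946-5p (0.011) and miR-183-3p (0.16) turned above 0.

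By arm, 16 of the 20 falls were 5p miRNAs, as were 231 of all 491 tested miRNAs. Of all tested, 7.54% were called, 3.46% higher and 4.07% lower. Of 231 tested 5p arms, 3 were called higher and 16 lower (8.23% called). Of 152 tested 3p arms, 7 were higher and 2 lower (5.92%). Of 108 miRNAs without an arm in the name, 7 were higher and 2 lower (8.33%). The medians were -0.018, 0.61 and 0.041. The block from miR-6896 to miR-7119 holds many annotated mirtrons, which are cut from short introns. Of its 101 tested 5p arms, 1 was higher (miR-7016-5p) and 7 were lower, 7.92% against 7.54% of all tested miRNAs, with a median of -0.26. The doses did not overlap in 7 higher and 14 lower of these (19.8% and 9.37% of all tested). Of its 30 tested 3p arms, 0 passed by limma, 27 had changes above 0, and for 22 the irradiated arrays lay wholly above the controls (19.8% of all tested miRNAs), with a median of 0.68. Without scaling that median was 0.036 and the 5p median -0.90. The block was formed with these values known.

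**Figure D4:**
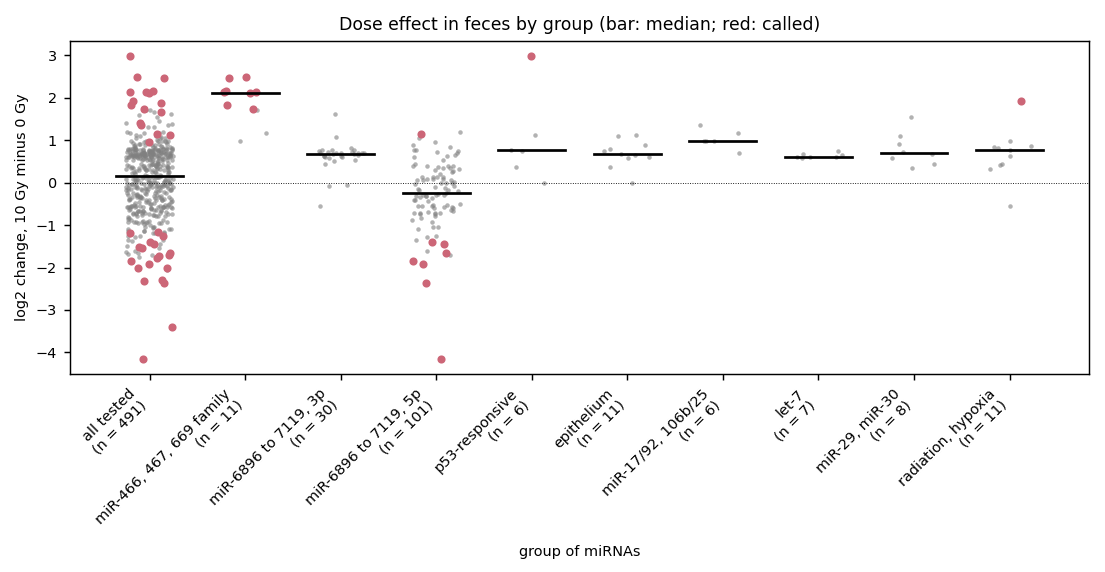
Log2 change (10 Gy minus 0 Gy) of fecal miRNAs in each group, with members as points, called ones in red and the median as a bar. The family of miR-466, miR-467 and miR-669 has a median of 2.11, the 5p arms of miR-6896 to miR-7119 one of -0.26, and the epithelial list one of 0.67 with no call.

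The mean share of G was 29.8% in the 12 higher and 39.3% in the 18 lower miRNAs with a sequence, against 36.5% in all 424. This order rested on the 4 higher miRNAs with the CACACA motif, which averaged 6.02% G. The other 8 higher ones averaged 41.6%, above the lower ones. Across those 424 the change correlated with the share of G at r = -0.31 and with that of U at r = 0.31. In small intestine the correlation with G was 0.30, over 191 miRNAs. These describe miRNAs measured on the same arrays and have no p.

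Most markers of intestinal epithelium were detected in feces. Of 16 listed, 13 were detected and 11 tested, and 0 of the 11 were called, against 7.54% of all tested miRNAs, under 1 in a list of this size. Of the 11, 10 had changes above 0, against 56% of all tested miRNAs, with a median of 0.67 against 0.15 for all tested miRNAs. miR-192-5p, the main enterocyte miRNA, had 1650, 543, 227 and 1389 at 0 Gy and 1127, 1750, 694 and 1657 at 10 Gy (0.75 ± 0.62, adjusted p = 0.42). The doses overlapped, and replicates 2 and 3 were the low controls. The same controls were low for miR-194-5p (0.38 ± 0.60), for miR-200b-3p (1.09 ± 0.75, with 610, 173, 50.3 and 481 at 0 Gy and 438, 711, 249 and 679 at 10 Gy) and for miR-200a-3p (0.79 ± 0.74). The summed level of the list ran from 787 to 5170 at 0 Gy and from 2080 to 5800 at 10 Gy. Without scaling the list's median was 0.025.

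Further lists of abundant miRNAs also had medians above 0, with 0 or 1 call each. Of all tested miRNAs 7.54% were called, a share that leaves few calls in short lists. The list of miR-17/92 and its paralog cluster miR-106b/25, both high in dividing cells, also held related miRNAs such as miR-20b-5p, which has the seed of miR-17-5p. The list had a median of 0.98 over 6 tested members (0.34 without scaling), with 0 called. Among them were miR-20a-5p (0.97 ± 0.64), miR-17-5p (1.16 ± 0.81), miR-20b-5p (0.98 ± 0.69) and miR-93-5p (0.99 ± 0.75). In each of these the low controls were 0 Gy replicates 3 and 4, as in miR-17-5p (192, 120, 16.7 and 23.5), unlike in the epithelial markers above. let-7, high in differentiated cells, had a median of 0.61 over 7 (-0.039 without scaling), with 0 called, as in let-7b-5p (0.64 ± 0.48), let-7c-5p (0.59 ± 0.55), let-7a-5p (0.58 ± 0.64) and let-7f-5p (0.61 ± 0.74). Members of miR-29, which targets collagens, and miR-30 had a median of 0.70 over 8 (0.063 without scaling) and 0 calls, as in miR-29a-3p (1.09 ± 0.82), miR-30d-5p (0.35 ± 0.26), miR-29c-3p (1.53 ± 0.87) and miR-30a-5p (0.67 ± 0.56). Of 11 tested miRNAs of the radiation and hypoxia list only miR-574-3p passed. miR-483-5p (-0.56 ± 0.28), encoded within Igf2, and miR-21a-5p (0.82 ± 0.63), raised in many injured tissues, did not.

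Other cell types were nearly out of range. Of 10 leukocyte miRNAs, 7 were detected on 0 arrays, among them miR-142a-3p and miR-150-5p. miR-181a-5p, found in lymphocytes and elsewhere, had 48.7, 46.4, 33.9 and 52.4 at 0 Gy and 35.2, 21.1, 8.22 and 6.76 at 10 Gy (-1.65 ± 0.51, adjusted p = 0.075). miR-223-3p, of granulocytes, was detected on 3 of 4 control arrays and 0 of 4 irradiated ones, too few to be tested, and is named after its values were seen. The leukocyte list, with miR-181a-5p and the undetected members in the sum, came to 93.8 to 117 at 0 Gy and 48.3 to 82.9 at 10 Gy. Its part in the falls was not tested. miR-217-5p of the exocrine pancreas, given above, had 21.8, 4.26, 92.6 and 11.6 at 0 Gy and the floor at 10 Gy, and miR-216a-5p and miR-216b-5p were not detected. miR-148a-3p, of liver and pancreas, changed by 0.71 ± 0.75.

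Of 12 smooth muscle and mesenchyme miRNAs only miR-133a-3p was detected (0.70 ± 0.23, adjusted p = 0.075), with 39.4 to 59.3 at 0 Gy and 65.2 to 85.2 at 10 Gy, and the list summed to 42.8 to 64 and 65.2 to 92.1. Of 4 erythrocyte miRNAs only miR-486a-5p was detected (0.29 ± 0.27), with the list at 24.5 to 40 and 25.9 to 47.3. The miRNAs of endothelium (4 on the array) were detected on 0 fecal arrays, and 0 of 7 neuronal ones were tested.

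Of the fecal calls, 2 passed with the same sign in small intestine and 3 with the opposite sign. In small intestine 138 of 335 tested miRNAs passed (41.2%), and 219 miRNAs were tested in both sample types. Of these 219, 99 had changes of the same sign in both and 120 of opposite sign. Across them the changes correlated at r = -0.11, a description with no p. Of the 37 fecal calls, 16 were tested in intestine, and 19 were detected on 0 intestinal arrays, namely 16 of the 20 falls and 3 of the 17 rises. Of all 491 tested fecal miRNAs, 220 (44.8%) were detected on 0 intestinal arrays. Slide and sample type cannot be told apart.

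The difference between the dose effects was tested in 1 limma fit of both sample types. It passed for 49 of 219 miRNAs (22.4%), with feces the higher in 21 (9.59%) and the lower in 28 (12.8%). That split was 27 and 17 with quantile normalization, 30 and 7 with the percentile over all miRNAs, and 0 and 56 without scaling. Of the 16 fecal calls it passed for 12. These 16 were picked by their fecal change on the same arrays that enter the contrast, which raises that count.

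**Figure D5:**
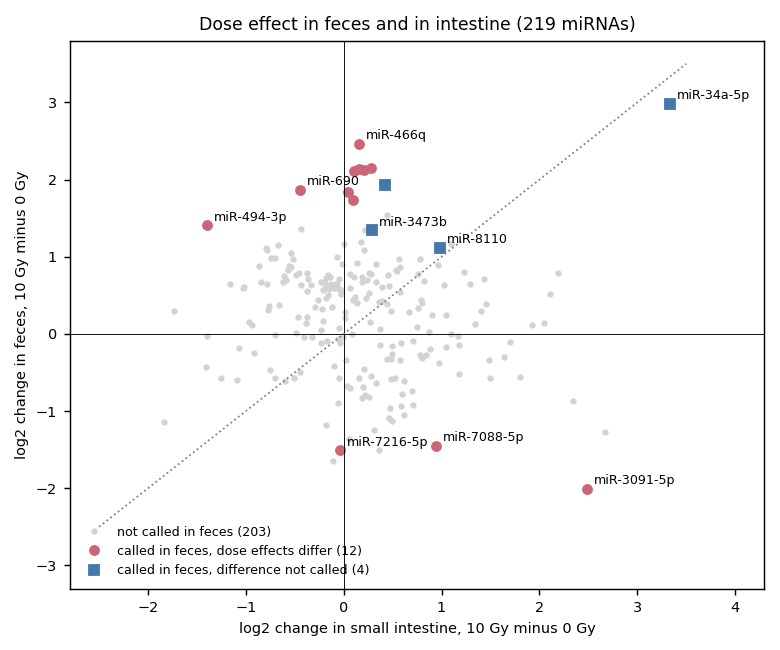
Log2 change in feces against log2 change in small intestine for the 219 miRNAs tested in both, with the 16 fecal calls coloured by whether the dose effects differed (adjusted p below 0.05) and equal changes dotted. miR-34a-5p lies high on both axes (2.98 and 3.33), and miR-3091-5p and miR-494-3p have opposite signs.

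miR-34a-5p rose in both, by 2.98 ± 0.46 in feces and 3.33 ± 0.19 in intestine (adjusted p = 7e-08), and the difference of -0.35 ± 0.52 did not pass (adjusted p = 0.62). miR-8110 rose in both too, by 1.12 ± 0.28 and 0.98 ± 0.19, with a difference of 0.14 ± 0.36 (adjusted p = 0.79). For 3 miRNAs the changes were opposite and each passed. miR-3091-5p fell in feces (-2.01 ± 0.42) and rose in intestine (2.48 ± 0.20, detected on 0 of 4 arrays at 0 Gy there, so the size depends on the floor), a difference of -4.49 ± 0.49 (adjusted p = 7.7e-06). miR-494-3p rose in feces (1.41 ± 0.34) and fell in intestine (-1.40 ± 0.44), a difference of 2.81 ± 0.64 (adjusted p = 0.0082). miR-7088-5p fell in feces (-1.45 ± 0.37) and rose in intestine (0.94 ± 0.32, detected on 2 of 4 arrays at 0 Gy), a difference of -2.39 ± 0.54 (adjusted p = 0.0082).

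For the family of miR-466, miR-467 and miR-669 the intestinal median was 0.16 over 9 tested members, of which 1 passed. The dose effects differed for 7 members, by 1.64 (miR-466h-3p) to 2.31 (miR-466q). They also differed for miR-690 (2.31 ± 0.54, adjusted p = 0.0082) and miR-7216-5p (-1.47 ± 0.48, adjusted p = 0.035). For miR-574-3p (1.505 ± 0.57, adjusted p = 0.063) and miR-3473b (1.06 ± 0.53, adjusted p = 0.15) the difference did not pass.

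In intestine 6 of the 11 epithelial miRNAs tested in both passed as lower (15.2% of all miRNAs tested in intestine), with a median of -0.62, and 0 in feces (4.07% of all tested there). The difference itself passed for 1 of the 11, miR-378a-3p (0.60 ± 0.32 in feces, -1.02 in intestine, adjusted p of the difference = 0.011), which is named after its values were seen. For miR-192-5p (1.36 ± 0.69, adjusted p = 0.15) and miR-200b-3p (1.88 ± 0.81, adjusted p = 0.1) it did not. The 6 tested members of the list of miR-17/92, its paralog cluster and related miRNAs had an intestinal median of -0.63 with 5 lower (15.2% of all). For miR-17-5p the difference was 1.83 ± 0.86 (adjusted p = 0.13). The radiation and hypoxia list had 7 of 11 higher in intestine (26% of all tested there) and 1 in feces (3.46%), and for miR-483-5p the difference passed (-2.36 ± 0.40, adjusted p = 0.00096).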

How the data were processed

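RNA was extracted with Isogen II, labelled with Cy3 and hybridised to 1-colour arrays, per the labels' protocols. Per the submitters' processing notes the authors used Agilent Feature Extraction 11.5. The deposited processed intensity is linear and background-subtracted, and per the file headers no normalization between arrays was applied. Its mean over a probe's spots, outlying ones left out, was summed over probes. Detection needed a probe with at least 50% of spots well above background. Each array was scaled to its 75th percentile, taken over miRNAs that every array of that sample type detected. Values were raised to a floor (4.26 in feces, 10.4 in intestine, 13.2 for single fecal probes) and taken to log2. Fecal miRNAs detected on at least 4 of 8 arrays were tested with limma 3.58.1 in R 4.3.3 (lmFit and eBayes, no block, Benjamini-Hochberg). The fits were also run on simulated independent normal values, with the same spread at both doses and no floor. That run could not test the effect of the floor, of unequal spread or of outlying arrays. No miRNA spot was saturated. The number of arrays limits the precision.

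Members, lists and rules were chosen with earlier results of these data known. The text names all passing miRNAs without overlap (up to 20 in each direction), passing list members, up to 4 listed miRNAs by level, and tested miRNAs that share a seed with a passing one. Same-numbered arrays of the doses correlated at r = -0.43, -0.21, 0.40 and 0.25 in their deviations. So few values cannot decide whether the numbers pair the arrays, and they were not taken as pairs.

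Alternatives covered scaling, background, filter, floor, probe summary, outlying spots, blocks, array weights, the arrays in the fit, and the authors' series value table.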

Additional observations from a re-analysis of the deposited data

Results flagged for a closer look

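The dose effect differed between feces and small intestine for 12 of the 16 fecal calls tested in both, by the interaction contrast of limma. The 16 were picked on the fecal arrays that this contrast uses again, so the count is no separate evidence. Feces minus intestine was 2.31 for miR-466q, 2.00 for miR-669p-3p, 1.98 for miR-466f-3p, 1.92 for miR-466i-3p, 1.87 for miR-669c-3p, 1.80 for miR-467f and 1.64 for miR-466h-3p (adjusted p from 0.0091 to 0.015). It was 2.81 for miR-494-3p, 2.31 for miR-690, -2.39 for miR-7088-5p, -1.47 for miR-7216-5p and -4.49 for miR-3091-5p (adjusted p from 7.7e-06 to 0.035).

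miR-669c-3p had a scaled signal of 12.7 in 0 Gy replicate 4, while the other 3 control arrays were at the floor of 4.26. With 3 values at 1 imposed floor, any other value above it stands apart by construction, so this says nothing of chance.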

How the results depend on the processing

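All 37 fecal calls kept their direction in every alternative that tested them, except 5 of them with normexp. These were miR-3104-5p (0.0601), miR-6946-5p (0.011), miR-183-3p (0.16), miR-7039-5p (0.024) and miR-671-3p (0.32). Normexp took the median spot and background signals instead of the processed intensity, and added an offset of 50. Why the 5 turned was not tested. The number of calls, 37 in the test reported, was 3 with normexp, 3 over miRNAs detected on all arrays (326 tested), 171 with array weights, 192 in 1 fit of all 6 groups and 0 within slide row 2. As settings added after seeing the data, leaving out the 0 Gy arrays of slide row 1 gave 2 and of row 2 gave 84, and Feature Extraction's own summary gave 36. Leaving out single arrays gave 2 to 137. A replicate block gave 39 (17 higher, 22 lower, 33 of the 37 kept) and 58 differences from intestine, both within 1.5 times the counts reported. Whether the replicate numbers pair the arrays is not known. The 49 differences from intestine became 18 with normexp and 23 over miRNAs detected on all arrays, and 37 to 63 without single arrays. The difference in detected miRNAs, -57.75, ran from -107.2 to -8.25 without single arrays. The causes were not tested. Of the 37 calls, 15 were detected on all 8 arrays, and the other 22 were not well above background on 1 or more arrays.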
